A study of Mus musculus with 56 samples.

Results

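The regions described here are stretches of the mouse genome over which the histone deacetylases HDAC1, HDAC2 and HDAC3 all gave a ChIP-seq peak in unstimulated bone marrow-derived macrophages (BMDMs). Peaks of the 6 untreated (ctrl) HDAC samples were merged where they overlapped by 1 bp or more, which gave 40815 regions, and the 5477 with a peak in all 6 samples were kept as co-bound. The remaining regions had a peak in 1 (11779), 2 (8364), 3 (5802), 4 (5793) or 5 (3600) of the samples. HDAC3 set the size of the class: of 7209 regions with an HDAC3 peak in both ctrl samples 76.0% were co-bound, against 44.0% of the 12459 regions with HDAC1 and HDAC2 in all 4 of theirs. The members were chosen by the HDAC peaks of the ctrl samples, so the HDAC scores are given as a description with no test.

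BMDMs of 8 to 12 week old wild-type C57BL/6 mice were differentiated for 6 days in L929 cell supernatant, a source of M-CSF, so every group here carries that treatment. Cells were left untreated (ctrl) or given 20 ng/ml interleukin-4 (IL-4) for 1 hr, and chromatin was precipitated with antibodies to HDAC1, HDAC2, HDAC3, acetylated lysine 27 of histone H3 (H3K27Ac), PU.1, p300 and RNA polymerase II phosphorylated on serine 5 (RNAPII-pS5) or serine 2 (RNAPII-pS2). For p65, RNAPII-pS5 and RNAPII-pS2 a separate set of 4 groups was made: ctrl/ctrl, 24 hr of IL-4 pretreatment alone (IL-4 PT/ctrl), 1 hr of 100 ng/ml lipopolysaccharide (ctrl/LPS) and pretreatment followed by LPS (IL-4 PT/LPS). Each group held 2 samples, 56 in all over 28 groups. The study describes its ChIP-seq data as independent biological replicates, while the labels do not say what separates the samples of a group, and p-values measure the spread between those samples.

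Histone deacetylases remove acetyl groups from lysines of histone tails, the reverse of what acetyltransferases such as p300 do. HDAC1 and HDAC2 are the catalytic subunits of the NuRD, Sin3 and CoREST complexes, while HDAC3 works in another corepressor complex. In macrophages these enzymes are found at active enhancers, the distal elements opened by the lineage factor PU.1 and marked by H3K27Ac, as well as at silenced genes. IL-4 acts through the transcription factor STAT6 and drives alternative polarization, whereas LPS acts through Toll-like receptor 4 and brings the NF-kB subunit p65 to the genome.

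Sequences of 5 co-bound regions on which the results below turn are shown first, as the plus strand of GRCm38.p6 (the RefSeq copy of mm10), 5′ to 3′. Each window of 300 bp was centred on the strongest ctrl HDAC peak. Capitals mark matches on either strand to PU.1 (GAGGAAGT), a PU.1-IRF composite (GGAANNGAAA), AP-1 (TGANTCA), C/EBP (TTGCNNAA), RUNX (TGTGGT) and, for the IL-4 or LPS regions, STAT6 (TTCNNNNGAA), the shorter STAT spacing (TTCNNNGAA) or NF-kB (GGGANNNNCC). Cx3cr1 is one of the 2 regions among the 10 of best rank over the 6 ctrl HDAC samples that were not annotated as simple repeat, the Rmi2 and 1700112H15Rik regions gained and the Fpr2 region lost H3K27Ac or p300 after IL-4, and the Olfr432 region gained p65 after LPS. Names are those of the nearest gene.
Cx3cr1 (chr9:120058740-120059039): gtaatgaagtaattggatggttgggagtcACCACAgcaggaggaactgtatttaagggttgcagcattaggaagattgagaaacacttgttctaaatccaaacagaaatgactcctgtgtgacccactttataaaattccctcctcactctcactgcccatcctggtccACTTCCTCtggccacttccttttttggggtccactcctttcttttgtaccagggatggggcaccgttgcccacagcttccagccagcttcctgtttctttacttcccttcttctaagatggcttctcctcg
Rmi2 (chr16:10844129-10844428): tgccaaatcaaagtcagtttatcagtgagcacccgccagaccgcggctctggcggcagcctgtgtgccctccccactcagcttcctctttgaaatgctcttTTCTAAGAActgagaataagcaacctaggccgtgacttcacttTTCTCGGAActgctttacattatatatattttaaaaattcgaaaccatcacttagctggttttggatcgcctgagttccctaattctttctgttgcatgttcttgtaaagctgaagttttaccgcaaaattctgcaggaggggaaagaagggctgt
1700112H15Rik (chr1:184590727-184591026): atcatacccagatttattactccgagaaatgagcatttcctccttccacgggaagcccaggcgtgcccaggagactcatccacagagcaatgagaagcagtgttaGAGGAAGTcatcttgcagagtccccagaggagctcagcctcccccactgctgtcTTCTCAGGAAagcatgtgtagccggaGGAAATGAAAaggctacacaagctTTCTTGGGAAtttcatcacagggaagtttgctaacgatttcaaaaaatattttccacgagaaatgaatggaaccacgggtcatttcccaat
Fpr2 (chr17:17900822-17901121): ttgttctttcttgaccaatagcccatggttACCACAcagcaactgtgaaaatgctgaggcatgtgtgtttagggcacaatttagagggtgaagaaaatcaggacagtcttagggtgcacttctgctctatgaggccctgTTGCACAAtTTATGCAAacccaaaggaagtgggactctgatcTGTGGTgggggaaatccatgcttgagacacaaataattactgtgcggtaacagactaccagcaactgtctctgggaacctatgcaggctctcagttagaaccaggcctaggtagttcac
Olfr432 (chr1:174053179-174053478): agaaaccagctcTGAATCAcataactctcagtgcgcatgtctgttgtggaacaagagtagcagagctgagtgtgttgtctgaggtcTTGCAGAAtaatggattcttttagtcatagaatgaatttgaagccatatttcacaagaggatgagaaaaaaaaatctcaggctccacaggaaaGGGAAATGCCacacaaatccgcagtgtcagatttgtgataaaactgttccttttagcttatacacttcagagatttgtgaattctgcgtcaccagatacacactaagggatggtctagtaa
The Cx3cr1 window holds a PU.1 and a RUNX match, the Rmi2 window holds the shorter STAT spacing in 2 places as TTCTAAGAA and TTCTCGGAA, and the 1700112H15Rik window holds PU.1, PU.1-IRF and STAT6 matches. In the Fpr2 window C/EBP and RUNX matches were found and no match to either STAT spacing, and the Olfr432 window holds AP-1, C/EBP and NF-kB matches. A match is a string of letters and not a measured binding event.

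Co-bound regions lay away from gene starts. By the deposited annotation 2533 (46.2%) were intergenic and 2503 (45.7%) intronic, while 255 were at promoters, 4.66% with a 95% exact binomial interval of 4.11 to 5.25%, which covers counting error only. Of the 35338 other HDAC regions 17.6% were at promoters, and of the 4254 regions with HDAC1 and HDAC2 in all 4 samples but no HDAC3 peak 15.6% were. The 3600 regions with a peak in 5 of the 6 samples came close to the members. Of these 7.06% were at promoters, 43.2% were intergenic and 0.861% had a CpG island annotation, with a median distance of 19250.5 bp. A distal location was therefore not particular to the co-bound class. The median distance to the nearest start site was 22290 bp (quartiles 7976.5 and 53377 bp) for co-bound regions, 13840 bp for the regions without HDAC3 and 9582.5 bp for all others. A CpG island annotation was given to 0.201% of co-bound regions and to 4.38% of the others. The members were also wider, with a median of 540 bp (202 to 3841 bp) against 350 bp, and merging more peaks widens a region. A further 64 members lay at transcript ends, 53 in exons and 50 in 3′ untranslated regions.

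The nearest genes numbered 3442 for 5475 members, and 2277 of them had a single co-bound region. At least 5 members were nearest to each of 106 genes. Maf, a transcription factor of macrophage self-renewal and identity, had the most with 13 co-bound of 31 HDAC regions, followed by Reep3 with 10 and by 1700112H15Rik and Cited2, a regulator of p300 and CBP binding, with 9 each. Dab2, Pid1, Rgl1, Sgms1, Tbxas1 and Zfp386 were among the genes with 8.

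The top of the ranking by score was repeat sequence. MACS2, the peak caller of the authors, gives each peak a score on a −log10 scale, and members were ranked by the mean of their ranks in the 6 ctrl samples. Of the first 10, 8 were annotated as one kind of simple repeat, with Tmem196, Mrgprd, Fgf14, Asmt, Csf2ra, Gm14496, Cr2 and Wls as the nearest genes. At the Tmem196 region (chr12:120028535-120029141, intergenic, 82883 bp from the start site) the ctrl scores were 105 and 92.7 for HDAC1, 113 and 75.6 for HDAC2 and 110 and 71.1 for HDAC3. In all 42 members carried this annotation, on 19 chromosomes, and 15 of them lay within 100000 bp of a chromosome end. PU.1 and H3K27Ac covered 0 of the 42 in both ctrl samples, while p300 covered 39, RNAPII-pS5 41 and p65 all 42 in ctrl/ctrl. At Tmem196 the p65 scores were 83.9 and 112 in ctrl/ctrl, 83.0 and 96.8 in IL-4 PT/ctrl, 93.5 and 83.8 in ctrl/LPS and 80.7 and 86.5 in IL-4 PT/LPS. These 4 groups overlapped.

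The 2 top regions outside this annotation were intronic. Intron 1 of Lmtk2, a membrane-anchored kinase, carried a region (chr5:144125934-144126460) with ctrl scores of 56.5 and 64.0 for HDAC1, 51.6 and 44.3 for HDAC2 and 89.4 and 53.8 for HDAC3. Intron 1 of Cx3cr1, the fractalkine receptor of monocytes and macrophages, carried another (chr9:120058604-120059215) with 45.4 and 29.8 for HDAC1, 49.0 and 36.6 for HDAC2 and 126 and 116 for HDAC3. The Cx3cr1 region stood out by HDAC3, whose lower ctrl sample exceeded both samples of the other deacetylases. After IL-4 its scores were 28.0 and 43.1 for HDAC1, 45.2 and 38.1 for HDAC2 and 94.7 and 104 for HDAC3, so that the groups overlapped for HDAC1 and HDAC2 and not for HDAC3.

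At the edge of the rule, the weakest entry came from HDAC3. A region in an intron of Abtb2 (chr2:103605808-103606585) was just inside, with HDAC3 ctrl scores of 6.57 and 1.71 beside 12.4 and 11.4 for HDAC1 and 17.0 and 9.27 for HDAC2. A region nearest to Lifr, a cytokine receptor subunit (chr15:7084916-7085481), was just outside although its HDAC1 scores were 34.3 and 30.3 and its HDAC2 scores 41.0 and 46.2, because HDAC3 had a score of 12.9 in one sample and no peak in the other. HDAC3 ctrl replicate 2 had the fewest peaks of the 6 samples, 8440, and without it 7719 regions would have passed.

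Among the members HDAC1 and HDAC2 scores followed each other and HDAC3 less so. Median ctrl scores were 12.2 and 9.50 for HDAC1, 12.2 and 9.97 for HDAC2 and 13.8 and 9.41 for HDAC3. Spearman coefficients across the 5477 members were 0.61, 0.63 and 0.74 between the samples of HDAC1, HDAC2 and HDAC3. They ran from 0.55 to 0.61 between HDAC1 and HDAC2 and from 0.29 to 0.37 between either of these and HDAC3. The points are regions that share one set of libraries, so no p is given. Against the mean ctrl score of other antibodies, where both samples had a peak, the HDAC coefficients were 0.25 to 0.43 for PU.1, 0.39 to 0.43 for p300, 0.11 to 0.20 for RNAPII-pS5 and −0.04 to 0.01 for H3K27Ac.

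Nearly all co-bound regions also carried PU.1 and p300. In both ctrl samples PU.1 had a peak over 95.9% of the members and p300 over 99.3%, compared with 77.7% and 93.6% of the regions without HDAC3 and 54.6% and 72.0% of all other HDAC regions. RNAPII-pS5, the form of polymerase near initiation, covered 88.0%, 63.1% and 52.9% of these 3 classes in the same order. H3K27Ac covered 72.0%, 74.4% and 56.3%, so that co-bound regions were not the class most often acetylated. For p65 the shares were 49.0%, 12.0% and 8.30% in ctrl/ctrl and 79.0%, 35.4% and 26.6% in ctrl/LPS. All of PU.1, p300, H3K27Ac and RNAPII-pS5 were present at 64.9% of members and at 37.4% and 18.1% of the other classes, and 0 members lacked all 4. These are descriptions of separately called peak sets. A co-bound region is wider and carries stronger HDAC peaks, so chance overlap and signal strength move with the class, and their part was not tested.

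**Figure D1:**
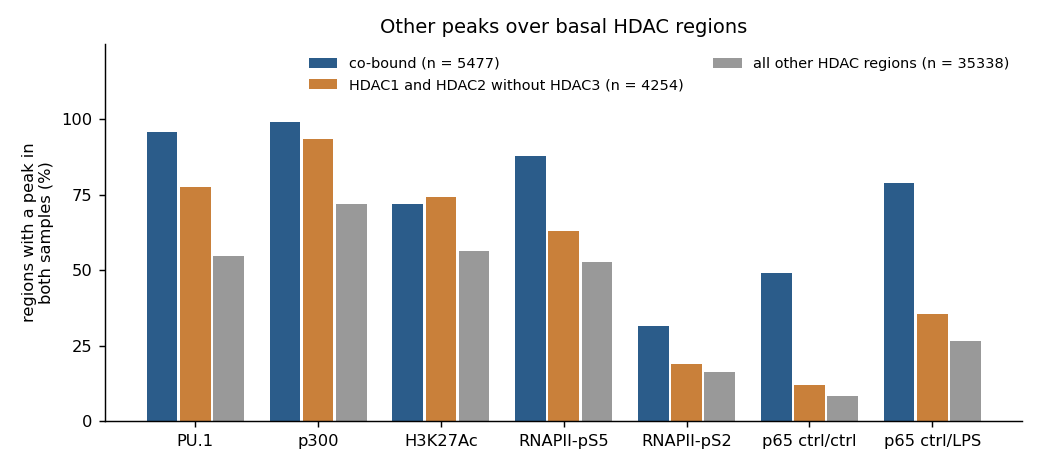
Share of regions (vertical axis, percent) with a peak in both ctrl samples of each antibody, or in both ctrl/ctrl or ctrl/LPS samples for p65. Bars stand for the 5477 co-bound regions, the 4254 regions with HDAC1 and HDAC2 but no HDAC3, and all 35338 other HDAC regions; co-bound regions are highest for every antibody but H3K27Ac, where they reach 72.0% against 74.4%.

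The libraries themselves were checked on marker genes, and the result depended on how a peak was assigned. RNAPII-pS5 had a peak in both ctrl samples within 2000 bp of the start of 8 of 8 macrophage marker genes, and of 1 of 5 T cell (Lck), 0 of 5 B cell, 1 of 5 neutrophil (S100a8), 1 of 4 erythroid (Klf1) and 0 of 4 fibroblast markers. By the promoter annotation only 1 of 8 macrophage markers (Mertk) had one, as did 1 of 5 neutrophil markers (S100a8) and 0 of the other lists. With any peak of the gene, 8 of 8 macrophage markers had one. So did 2 of 5 T cell, 2 of 5 B cell, 2 of 5 neutrophil, 2 of 4 erythroid and 0 of 4 fibroblast markers. The p300 ctrl replicate 1 stood apart with 44787 peaks against 66710 to 69360 in the other 3, and its median score over the members was 50.4 against 124 to 133. Within the files of RNAPII-pS2 with 1 hr of IL-4, peaks of samples labelled ctrl are named for IL-4 and the reverse, so no IL-4 direction is read from them. The labels give the HDAC3 antibody the catalogue number of the H3K27Ac antibody, whereas the study's resource list gives another. Of HDAC3 ctrl peaks 66.0% and 65.8% lay over an H3K27Ac region, against 69.7% and 72.0% for HDAC1, 67.2% and 67.6% for HDAC2 and 31.7% and 31.1% for PU.1.

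The comparison of 1 hr IL-4 with ctrl asked whether the deacetylases leave or join these regions, and the medians depended on how the regions were chosen. The median log2 change of score over the 5477 members was −0.14 for HDAC1 (−0.18 to −0.06 over the 4 pairs of a treated with a ctrl sample), −0.09 for HDAC2 (−0.11 to −0.04) and −0.15 for HDAC3 (−0.15 to −0.11). Because the members were picked for having a peak in every ctrl sample, a lower value after IL-4 is built into the choice. Applied instead to the 6 IL-4 samples, the same rule gave 6277 regions with medians of 0.091, 0.097 and 0.27. Over the 4037 members (73.7%) with a peak in all 12 HDAC samples the medians were −0.026, −0.018 and −0.032. A peak was still called in both IL-4 samples at 84.0% of members for HDAC1, 92.0% for HDAC2 and 88.5% for HDAC3, and in neither at 203, 40 and 146 members. Without centring the medians were −0.46, −0.016 and 0.14, and without IL-4 replicate 2 the HDAC2 median was 0.018.

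Single regions moved further than these medians. At the Rmi2 region (chr16:10843959-10844499, intergenic, 9219 bp from the start site of a subunit of the BLM dissolvasome) HDAC1 scores went from 6.89 and 6.88 to 22.5 and 15.9, HDAC2 from 8.18 and 5.19 to 30.6 and 25.5, and HDAC3 from 4.80 and 6.25 to 28.0 and 36.5. All 3 deacetylases were higher after IL-4 there with no overlap of the groups. The 1700112H15Rik region (chr1:184590684-184591187, intergenic, 33185 bp upstream) had HDAC3 scores of 24.0 and 18.1 in ctrl and 59.0 and 51.2 after IL-4, and HDAC2 scores of 15.8 and 16.7 against 28.5 and 22.3. HDAC1 was at 19.2 and 8.86 against 14.0 and 15, where the groups overlapped. Upstream of Arg1, which encodes arginase 1, a region 2838 bp from the start (chr10:24930119-24930619) had HDAC3 scores of 12.5 and 14.5 in ctrl and 58.1 and 30.2 after IL-4. At the Fpr2 region (chr17:17900669-17901161, intergenic, 13147 bp from a formyl peptide receptor gene) HDAC1 was lower, at 7.41 and 9.73 against 18.1 and 13.7, and HDAC3 was lower too, at 19.1 and 17.1 against 21.7 and 25.1. HDAC2 overlapped there, with 13.6 and 14.9 against 13.6 and 10.9. These regions were chosen for the other antibodies or after their values were seen, and no test was made.

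**Figure D2:**
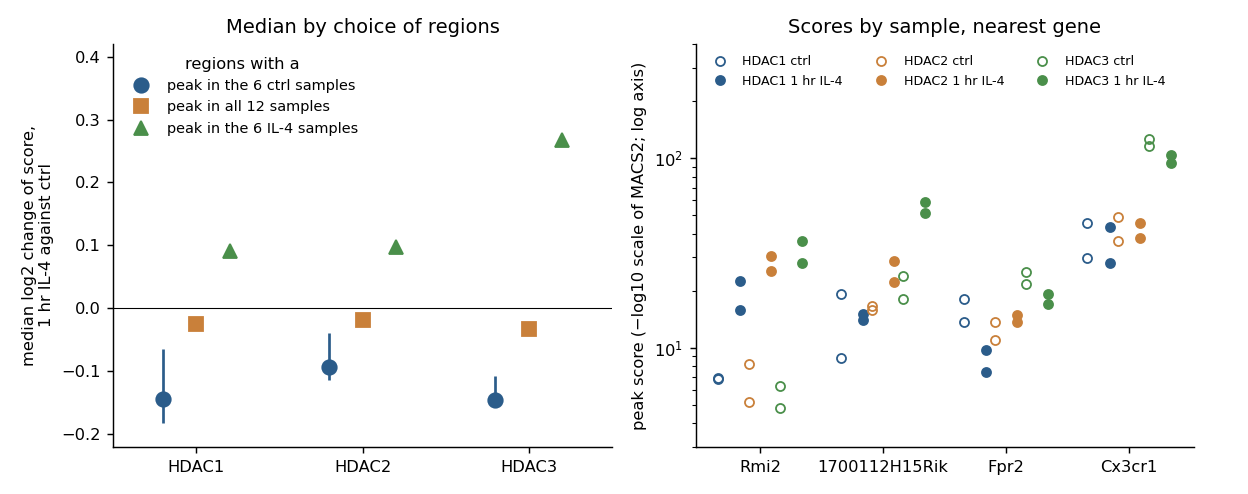
Left, median log2 change of HDAC scores after 1 hr IL-4 (vertical axis) over regions with a peak in the 6 ctrl, all 12 or the 6 IL-4 HDAC samples, with bars on the first for the range over the 4 pairs of samples. Right, HDAC scores (log axis) in each sample at 4 co-bound regions, open for ctrl and filled for IL-4; the medians change sign with the choice of regions, and at Rmi2 all 6 IL-4 points lie above their ctrl points.

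H3K27Ac gave the most calls after IL-4 at the co-bound regions. Its median standard error (SE) over the members was also the smallest, at 0.07. The others had 0.21 (p300), 0.32 (PU.1), 0.40 (RNAPII-pS5) and 0.57 (RNAPII-pS2). Numbers of calls therefore do not rank the antibodies by size of change. Of 3694 members with an H3K27Ac region in all 4 samples, 770 rose and 1615 fell (limma, Benjamini-Hochberg adjusted p of at most 0.05), against 19.3% and 24.3% of the 21748 HDAC regions of that kind. When a region in at least 2 samples was enough, 862 (20.8%) rose and 1730 (41.8%) fell of 4135 members, against 19.2% and 24.0% of the 25672 HDAC regions tested (43.2% in either direction). The median change was −0.23 in the members and −0.03 over all regions tested. Members were chosen by HDAC peaks of ctrl samples alone, and whether that choice moves this or another antibody toward falls was not tested. In the regions without HDAC3 17.8% rose and 25.2% fell, and in all others 18.9% and 20.6%. Among the members 873 of 1922 intergenic, 737 of 1853 intronic and 67 of 211 promoter regions fell, while 391, 393 and 48 rose. Leaving out ctrl replicate 1 lowered the number that fell to 1118.

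**Figure D3:**
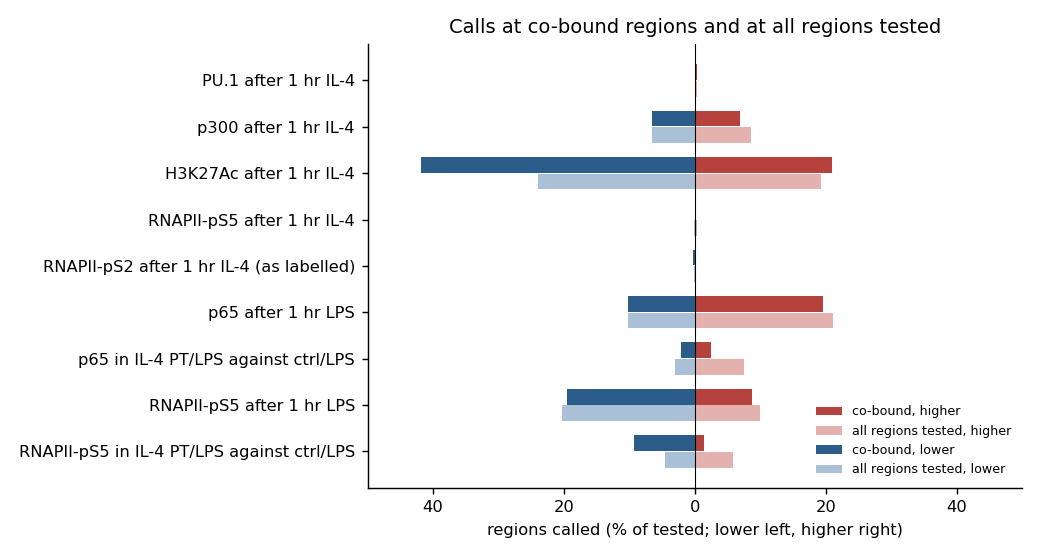
Share of tested regions called lower (left) or higher (right) in each comparison, in percent, for co-bound regions (dark) and for all HDAC regions tested (light). H3K27Ac after IL-4 has the widest bar among the members, 41.8% lower against 24.0% over all regions; RNAPII-pS2 is drawn as labelled.

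The largest rises in H3K27Ac signal among members with a region in all 4 samples were at distal sites; this condition was added after the values were seen. In an intron near Zfp609 (chr9:65844446-65844991) the signal was 27.3 and 29.1 in ctrl and 238 and 227 after IL-4, a log2 change of 3.09 (SE 0.07, limma adjusted p = 0.00017). The 1700112H15Rik region went from 19.3 and 20.0 to 153 and 139 (2.94, SE 0.09, adjusted p = 0.00036). A second Rmi2 region, in intron 1 (chr16:10838412-10838971), went from 15.7 and 16.2 to 118 and 103 (2.83, SE 0.11). In each case both treated samples lay far above both ctrl samples. The Tsc22d1 region, near a leucine zipper factor gene, followed at 2.78, the 4833427F10Rik region (chr17:35740435-35740841) at 2.59 and the Clvs1 region at 2.56.

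Falls were smaller in size. The Fpr2 region dropped from 126 and 127 to 35.4 and 35.1, a log2 change of −1.79 (SE 0.06, adjusted p = 0.00051). In intron 1 of Zfyve28, an endosomal protein gene, the signal was 163 and 165 in ctrl and 45.4 and 49.3 after IL-4 (−1.75, SE 0.07). The Pid1 region (chr1:84302751-84303276) went from 147 and 136 to 49.3 and 41.3 (−1.60, SE 0.12). The groups stood clear of each other at all 3. Gpr83 (−1.65), Cecr6 (−1.63) and E030013I19Rik (−1.57) were the nearest genes of the next regions. Some of the 10 genes with most members leaned one way: 8 of 12 tested members near Maf fell and 1 rose (median −0.41), 5 of 5 near Pid1 fell (−0.87), 5 of 5 near Rgl1 rose (0.68), and 6 of 7 near 1700112H15Rik, 6 of 9 near Cited2 and 4 of 5 near Dab2 rose. Fewer calls were made near Reep3 (2 of 4 rose), Tbxas1 (2 of 5 rose), Sgms1 (2 of 6 fell) and Zfp386 (1 rose and 2 fell of 5). By comparison, 20.8% of all 4135 members tested rose and 41.8% fell, and no difference from those shares was tested.

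A larger change was fitted only where a region was listed in one group alone. By the size of the fitted change Zfp395, Fyb, Ifngr2, Mir339 and Mcl1 came first among the rises (6.20 to 6.55) and Zeb2, Capza2, Gm14005, F830045P16Rik and Abr among the falls (−6.55 to −6.15), and all 10 were of this kind. At Zfp395 (chr14:65345338-65345849) the IL-4 samples gave 808 and 840 and the ctrl samples no region over the member, yet regions with signals of 930.1 and 886.6 lay 234 and 143 bp away. The deposited H3K27Ac regions are 1001 bp wide and placed anew in each sample, so an absence is not a measured 0. Of the members 127 had a region in the ctrl samples only and 89 in the IL-4 samples only.

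The direction of the H3K27Ac calls was next read by the class of the nearest gene. The study sorted IL-4-regulated genes from its RNA-seq into clusters A to D (induced) and E (repressed), and because those clusters come from the same treatment of the same cells they are not independent evidence of direction. With an H3K27Ac region in all 4 samples, 16 of 18 members near cluster A genes rose and 0 fell. In cluster B 60 of 98 rose and 8 fell, in cluster C 100 of 167 rose and 19 fell, and in cluster D 25 of 125 rose and 46 fell. Near cluster E genes 287 of 418 fell and 22 rose. Over all 3694 such members 770 rose and 1615 fell. Over all tested members the medians were 1.36, 0.47, 0.33, −0.17 and −0.43 for A to E, beside −0.23 for all members.

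**Figure D4:**
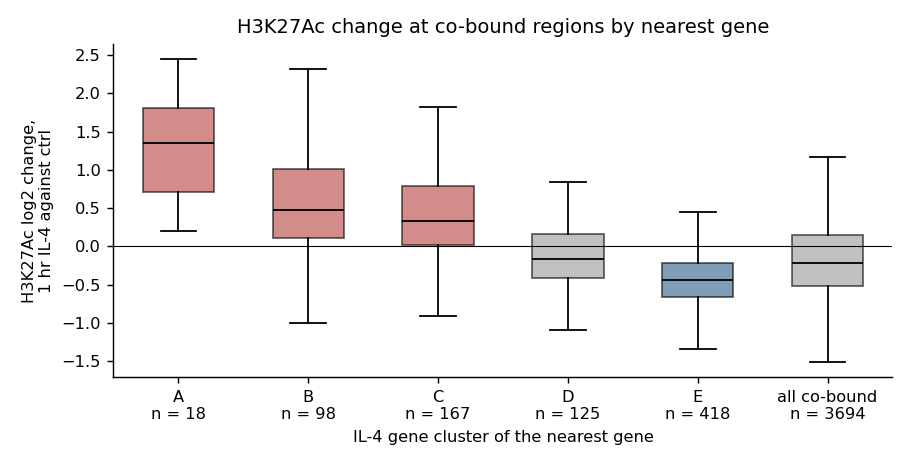
Log2 change of H3K27Ac signal after 1 hr IL-4 (vertical axis) at co-bound regions with a region in all 4 samples, by IL-4 gene cluster of the nearest gene (18, 98, 167, 125 and 418 regions for A to E, and all 3694). Boxes span the quartiles around the median line, with whiskers to 1.5 times the interquartile range and outliers not drawn; the A box lies above 0 and the E box below it.

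Of the 28 members near 14 listed IL-4-induced macrophage genes 24 were tested, and 16 rose and 3 fell. Over all 4135 members tested 20.8% rose and 41.8% fell, and no difference from those shares was tested. The gene lists count members with a region in at least 2 samples, so some calls and sizes rest on the value given to a missing region. All 3 regions near Arg1 rose by 1.51 to 1.90, the region near Mgl2, a C-type lectin gene, rose by 1.90, that near Hbegf, a growth factor of the EGF family, by 1.17 and that near Irf4, a transcription factor of alternative polarization, by 0.68. The 3 falls were 1 region each near Klf4, Pparg and Tgm2, while 3 of the 6 regions near Klf4 rose. Near the 9 IL-4-repressed genes that the study had named, 25 members were found. Of 14 tested 8 fell and 0 rose, beside 41.8% and 20.8% of all members tested. Smad3, a TGF-beta signal transducer, accounted for 4 of the 8, with changes of −1.20 to −0.63. Upstream of Abca1, the cholesterol exporter, the signal fell from 387 and 397 to 221 and 227 (chr4:53187091-53187763, −0.76, SE 0.04, adjusted p = 0.0012). Those groups did not overlap.

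Receptor and signalling genes had few members. The IL-4 receptor, Jak and Stat list had 11 members at 6 of 13 genes. Of 9 tested 1 rose and 3 fell, beside 20.8% and 41.8% of all members tested. The riser lay in intron 1 of Il4ra (2.89). It was not among the members with a region in all 4 samples, so its size rests on the value given to a missing region. The falls were 2 regions of Il13ra1 and 1 of Stat6 (−0.36). Among AP-1 and immediate early factors 7 of 28 rose and 8 fell, beside 20.8% and 41.8% of all members tested. A region 178458 bp from Jun (chr4:95230337-95231030) went from 85.0 and 67.8 to 194 and 170 (1.31, SE 0.14), and the groups did not overlap.

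Falls also outnumbered rises near lineage and NF-kB genes, as they did over all members (41.8% and 20.8%), and no difference from those shares was tested. Of 38 tested members near macrophage lineage and identity genes 20 fell and 5 rose. All 4 tested near Mef2c fell, and at the strongest (chr13:83074227-83074737) the signal was 178 and 188 in ctrl and 84.8 and 67.3 after IL-4 (−1.23, SE 0.14). For NF-kB and feedback genes 14 of 22 fell and 2 rose, with 6 of 6 near Nfkbiz, an atypical IkB protein gene, falling by −1.29 to −0.53 on the log2 scale and 3 of 3 near Bcl3. LPS-induced inflammatory genes were split, 8 of 21 up and 8 down. Members near Il6 (12.3 and 12.5 to 33.1 and 42.0, 1.63, SE 0.16) and all 3 near Ccl2 rose, whereas those near the chemokine genes Cxcl1 and Cxcl2 and near Il12b fell.

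Genes of the deacetylase complexes and their opponents were represented thinly. The counts below stand beside 20.8% up and 41.8% down of all members tested, and no difference from those shares was tested. All 3 tested members near Tbl1xr1, a subunit that docks HDAC3, fell. The NuRD, Sin3 and CoREST list of 22 genes had 5 members at 4 genes, 2 falling (Gatad2b and Mta3) and 0 rising. Of 5 tested near acetyltransferase and coactivator genes 3 rose and 1 fell, with Kat6b at 12.0 and 10.3 in ctrl and 42.4 and 48.6 after IL-4 (2.07). Of the H3K27 methylation list 2 of 5 rose, both near Kdm6b, an H3K27 demethylase gene, with 34.4 and 28.7 against 101 and 96.5 at chr11:69429258-69429762 (1.70, SE 0.12). Lysosome genes had 3 up and 3 down of 7, beside 20.8% up and 41.8% down of all members tested. Among markers of other cells, T cell, neutrophil and fibroblast genes had 0 members and the B cell marker Ms4a1 had 1 that fell. Macrophage markers had 0 up and 3 down of 4.

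p300, an acetyltransferase of H3K27, changed both ways. Among 5470 members tested 379 rose and 363 fell, where 8.58% and 6.50% of all regions did (15.1% in either direction). With a peak in all 4 samples 378 rose and 362 fell of 5435, beside 9.03% and 7.79% of all such regions. The Rmi2 region rose most, from 18.1 and 42.9 to 292 and 273, a log2 change of 2.65 after centring (SE 0.20, limma adjusted p = 2.4e-05). The next were Zfand3 (2.51), the promoter of Gm19434 (chr6:135188178-135188572, 13.5 and 33.7 to 201 and 168, 2.41), Atf1, a CREB family factor gene (2.37), and Gas7 (2.24). Of the falls, intron 1 of AU019990 went from 73.1 and 160 to 46.7 and 51.3 (−1.84, SE 0.21) and the Cxcl1 region from 45.8 and 123 to 43.1 and 37.8 (−1.59, SE 0.19). Treated samples lay outside the ctrl range at each region with values given. The 5 largest fitted falls were at A330049N07Rik, Serpine2, AU019990, Il17ra and Hspb1, and at Serpine2 and Hspb1 the uncentred scores of the groups overlapped.

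By gene list p300 rose at 7 and fell at 0 of 28 members near IL-4-induced genes, and rose at 3 and fell at 3 of 25 near the IL-4-repressed genes. Over all 5470 members tested it rose at 379 and fell at 363, and no difference from those shares was tested. Near cluster A genes 5 of 19 rose and 0 fell, near B 33 of 142 and 0, near C 32 of 245 and 7, near D 13 of 199 and 9, and near E 14 of 610 rose and 59 fell. Centring removed a shift of 0.69 (log2, IL-4 minus ctrl) that came with ctrl replicate 1, and uncentred values gave 0 calls in either direction. Counts were 999 up and 713 down without ctrl replicate 1, 803 and 2423 without ctrl replicate 2, 146 and 80 without IL-4 replicate 1 and 168 and 110 without IL-4 replicate 2.

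PU.1 was called at very few members, which is not a measured lack of change. The median standard error over the members was 0.32 for PU.1 and 0.07 for H3K27Ac. PU.1 rose at 15 and fell at 0 of 5351 tested, near the 0.335% and 0.0174% of all HDAC regions (0.352% in either direction). At an unadjusted p of 0.05 the numbers were 266 and 239, beside 5.73% and 4.05% of all regions. The Sep15 region went from 14.5 and 4.51 to 71.2 and 64.7 (2.68, SE 0.45, limma adjusted p = 0.026), and the Gm19434 promoter from 20.5 and 24.3 to 103 and 110 (1.87, SE 0.32, adjusted p = 0.026). Gm20740 (1.74), Kynu, an enzyme of tryptophan breakdown (1.68), and Tfec, a factor of the MiT/TFE family (1.64), were next, and the 1700112H15Rik region went from 32.5 and 17.8 to 97.1 and 98.2 (1.64, SE 0.28). Among members with a peak in all 4 samples the lowest value, at Rfwd2, was −3.00 (33.3 and 19.5 against 4.94 and 3.50, adjusted p = 0.076). With ctrl replicate 1 left out 116 rose and 34 fell, with ctrl replicate 2 left out 85 and 10, with IL-4 replicate 1 left out 11 and 4, and with IL-4 replicate 2 left out 8 and 3. Uncentred values gave 0 of either, and the shift removed was 0.38.

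RNAPII-pS5 rose at 9 and fell at 3 of 5114 members after 1 hr IL-4 (0.375% and 0.146% of all regions, 0.521% in all), and 294 and 591 passed an unadjusted p of 0.05, beside 9.06% and 9.56% of all. In intron 1 of Sdc4, the heparan sulfate proteoglycan syndecan-4, scores were 13.8 and 9.01 in ctrl and 86.0 and 93.2 after IL-4 (chr2:164441039-164441750, 3.12, SE 0.21, limma adjusted p = 0.0045). The Rmi2 region went from 8.25 and 3.39 to 50.3 and 35.9 (3.12, SE 0.39, adjusted p = 0.032) and the 1700112H15Rik region from 14.8 and 9.02 to 40.5 and 45.8 (2.01, SE 0.26, adjusted p = 0.038). The 4833427F10Rik region had no ctrl peak and 23.2 and 17.1 after IL-4. Falls were at 5430435G22Rik (44.1 and 42.5 to 8.49 and 9.18, −2.18), Gm4832 and Atp13a3. None of these groups overlapped. Leaving out ctrl replicate 1 gave 44 and 7, ctrl replicate 2 42 and 6, IL-4 replicate 1 5 and 13, and IL-4 replicate 2 4 and 6, while uncentred values gave 0 and 0.

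For RNAPII-pS2, the elongating form, 3 members were higher and 6 lower in the libraries labelled 1 hr IL-4 of 2460 tested (0.178% and 0.215% of all regions, 0.393% in all), with 314 and 318 at an unadjusted p of 0.05 (11.3% and 10.9% of all). The library labels decide every sign here. At the Rmi2 region the libraries labelled ctrl had scores of 35.3 and 34.7 and those labelled IL-4 had no peak. At the 1700112H15Rik region they had 20.5 and 23.2 against no peak, and at the Jun region 31.2 and 21.4 against 6.48 and 10.1 (adjusted p = 0.12). At the promoter of Tnf the values were 9.0 and 13.2 against 55.4 and 67.8, and at that of Ccl2 47.1 and 64.2 against 3.87 and 6.12. The other calls were at Tob2, C5ar2, Lpp, Atp6v0a1, Ms4a4c and Flot1. By the labels pS2 thus had the sign opposite to that of p300 and pS5 at both the Rmi2 and the 1700112H15Rik region. Uncentred values gave 0 calls, and with 1 library left out in turn the counts ran from 7 to 39 higher and from 7 to 40 lower.

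After LPS p65 rose at many members and, once the samples were centred, fell at others. Among 5105 members tested 1000 rose and 520 fell between ctrl/ctrl and ctrl/LPS, where 21.1% and 10.3% of all regions did (31.3% in either direction). With a peak required in all 4 samples 292 rose and 344 fell of 2481, beside 11.7% and 15.3% of all such regions. At the Olfr432 region (chr1:174053080-174053515, intergenic, 2953 bp from an olfactory receptor gene) scores were 4.74 and 7.45 in ctrl/ctrl and 156 and 165 in ctrl/LPS, a log2 change of 3.67 (SE 0.22, limma adjusted p = 0.0012). Near BC039771 (3.41), Sik3 (3.28), Jazf1 (3.17) and Rfwd2 (2.95) the regions also had peaks in all 4 samples. The Rmi2 region had no peak in ctrl/ctrl, 13.2 and 10.8 in IL-4 PT/ctrl, 83.3 and 75.2 in ctrl/LPS and 65.8 and 85.5 in IL-4 PT/LPS, and with Zfp719, Crtam, 4933440J02Rik and Rapgef6 it was among the 5 largest fitted rises, all without a ctrl/ctrl peak.

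A fall in centred p65 did not always mean a lower score. In intron 1 of a transcript beside 0610039K10Rik (chr2:163642582-163643046) the score went from 61.6 and 70.7 to 15 and 19.4 (−3.04, SE 0.26, adjusted p = 0.0015), and at Gm19434 (chr6:135183883-135184315) from 16.3 and 19.2 to no peak, as also near Ivns1abp, Lrrk1, Rxra and Slco2b1. By contrast the simple repeat regions made 29 of the 520 falls while their scores barely differed, as the Tmem196 values above show, because centring had removed a shift of 1.09 between the groups. Without centring 2335 members rose and 108 fell. Of 25 tested members near LPS-induced genes 11 rose and 1 fell (21.3% and 9.98% over all 4699 members with a peak in at least 2 of these samples), among them one 12765 bp from Ccl2 (chr11:82022595-82023185, 9.45 and 12.1 to 93.5 and 92.3, 2.03, SE 0.17). Without ctrl/ctrl replicate 1 or 2 the falls numbered 282 and 267, and without ctrl/LPS replicate 1 or 2 there were 551 and 543 rises and 236 and 283 falls.

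Pretreatment with IL-4 altered p65 after LPS at fewer members. In IL-4 PT/LPS against ctrl/LPS 127 rose and 111 fell of 5105, beside 7.52% and 3.13% of all regions (10.6% in all), and of 4066 members with a peak in all 4 samples 45 rose and 57 fell, beside 1.83% and 1.35% of all such regions. An intron of 5031439G07Rik went from 3.97 and 2.19 to 20.2 and 20.1 (chr15:84981751-84982384, 2.52, SE 0.42, limma adjusted p = 0.017), and intron 1 of Entpd1, the ectonucleotidase CD39, from 3.66 and 6.30 to 30.4 and 27.9 (2.35, SE 0.50). The Arg1 region went from 6.06 and 4.21 to 24.3 and 25.5 (2.05, SE 0.48, adjusted p = 0.0498). Its p65 was higher in both pretreated samples than in either ctrl/LPS sample. Of the lower regions those near 4933402J15Rik (−2.23) and Tm4sf20 (−2.05) had peaks in all 4 samples. Where a group had missing peaks the largest fitted changes were at 1700020N01Rik, Mical2, 1700110C19Rik, Trib2 and Cmip (higher) and at D6Ertd527e, Ppef2, S1pr1, Abr and Msn (lower). Without centring the split was 197 to 63. Leaving out either IL-4 PT/LPS sample gave 0 calls in both directions, and leaving out ctrl/LPS replicate 1 or 2 gave 69 and 72 rises and 28 falls each.

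RNAPII-pS5 fell at more members than it rose after LPS, but not where all 4 samples had a peak. Between ctrl/ctrl and ctrl/LPS 421 of 4832 members rose and 942 fell, near the 9.87% and 20.3% of all regions (30.2% in all). With a peak in all 4 samples the split was 197 to 149 of 2383, beside 9.40% and 7.88% of all such regions. The Dusp23 region, near a phosphatase gene, went from 5.13 and 8.26 to 55.0 and 59.2 (3.30, SE 0.32, limma adjusted p = 0.0022). In intron 2 of Atp6v0d2, a subunit of the vacuolar proton pump, scores went from 48.3 and 55.3 to 3.05 and 5.47 (−3.49, SE 0.43, adjusted p = 0.0029), and at the Abca1 region from 32.8 and 40.5 to 4.83 and 5.67 (−2.63, SE 0.27). The groups were far apart at each. Synpo, Prkcb, Il22, Tbl1xr1 and Maf regions had no ctrl/ctrl peak and Rbm46, Mrpl44, 0610039K10Rik, A230009B12Rik and Olfr211 regions no ctrl/LPS peak. Near LPS-induced genes 9 of 21 members rose and 1 fell, while 13 of 46 near macrophage lineage genes fell and 4 rose, beside 9.47% up and 21.2% down of the 4446 members with a peak in at least 2 of these samples. The simple repeat regions had 20 of 42 up. Without ctrl/ctrl replicate 1 or 2 the falls numbered 453 and 473, and without ctrl/LPS replicate 1 or 2 the rises 240 and 249.

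After IL-4 pretreatment RNAPII-pS5 in LPS-treated cells fell at more members than it rose. In IL-4 PT/LPS against ctrl/LPS 449 of 4832 members fell and 63 rose, where 4.59% and 5.80% of all regions did (10.4% in all), and with a peak in all 4 samples 182 of 2022 fell and 8 rose, beside 3.78% and 2.90%. The median change was −0.39 in the members. Over all regions tested it was −0.18, the value that centring gives a region without a peak in either group, so it does not measure a fall. Where at least 2 of the 4 samples compared had a peak the medians were −0.61 in the members and 0.07 over all such regions. A region 71412 bp from Vegfa, the angiogenic growth factor, went from 47.2 and 78.5 to 7.58 and 14.5 (chr17:45953482-45954030, −2.72, SE 0.38, limma adjusted p = 0.010). The Dmwd region (−2.89), Smim20 (−2.48) and Atp10a (−2.42) were among the other falls with peaks throughout, and Clec4g, Hcfc2, Psen2, Apoc4 and Cabp1 had no peak in IL-4 PT/LPS. At the promoter of Birc3, an apoptosis inhibitor and NF-kB target, pretreated samples had 29.1 and 31.1 and ctrl/LPS none (4.2, SE 0.35). Bex6 had 2 of the rises (2.25 and 1.69). Where at least 2 of the 4 samples had a peak, 49 of 373 members near cluster E genes fell and 4 rose, as did 23 and 1 of 162 near cluster C, close to the 13.1% and 1.83% of all 3436 such members. Of the 42 simple repeat regions 32 fell. Leaving out ctrl/LPS replicate 1 or 2 gave 182 and 167 falls and 29 and 25 rises, and leaving out IL-4 PT/LPS replicate 1 or 2 gave 259 and 278 falls and 29 and 27 rises.

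Whether the LPS effect itself differed with pretreatment was tested as an interaction in the same limma fits. For p65 the difference of log2 changes was called positive at 49 and negative at 139 of 5105 members, beside 2.49% and 2.74% of all regions (5.22% in either direction). With peaks in 4 or more of the 8 samples, a limit added after the values were seen, these were 32 and 110 of 4630, beside 0.807% and 1.87%. For RNAPII-pS5 it was positive at 198 and negative at 280 of 4832, beside 6.54% and 6.41% (13.0% in either direction). Under the same limit the positive calls dropped to 36 and the negative to 231 of 3987, beside 3.22% and 3.91%.

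Motif strings were then counted in the 300 bp windows. PU.1 letters were in 19.9% of the co-bound windows, 12.0% of those of all other HDAC regions and 17.3% of those without HDAC3. For the PU.1-IRF composite the shares were 14.3%, 7.74% and 10.2%, for AP-1 23.4%, 15.7% and 14.7%, for C/EBP 24.1%, 16.3% and 17.6%, and for RUNX 33.9%, 23.0% and 23.1%. STAT6 letters were in 10.2%, 8.05% and 7.55% and NF-kB letters in 15.9%, 17.3% and 15.6%. The GC-rich Sp/Klf box (GGGCGG) went the other way, with 6.55%, 17.6% and 14.0%. The composite can overlap a PU.1 match and no correction was made for it.

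Within the co-bound regions the STAT6 string went with the direction of H3K27Ac after IL-4. It was in 29.2% of the 770 windows whose H3K27Ac rose (95% exact interval 26.0 to 32.6%) and in 4.21% of the 1615 whose H3K27Ac fell (3.28 to 5.31%), as the 1700112H15Rik and Fpr2 windows show. The shorter STAT spacing was in 20.0% and 7.68%. PU.1 (18.3% and 20.4%), AP-1 (23.2% and 26.2%) and C/EBP (24.9% and 24.8%) strings were about as frequent in both. For centred p65 after LPS the AP-1 string was in 46.5% of the 1000 windows that rose and in 9.42% of the 520 that fell, whereas the NF-kB string was in 13.4% and 29.8%. Centring removed a shift of 1.09 there, so many of the 520 did not have a lower score, the simple repeat regions among them. These shares do not show that LPS removed p65 from sites with the NF-kB string. No test was made of these shares, which describe neighbouring and partly dependent regions.

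**Figure D5:**
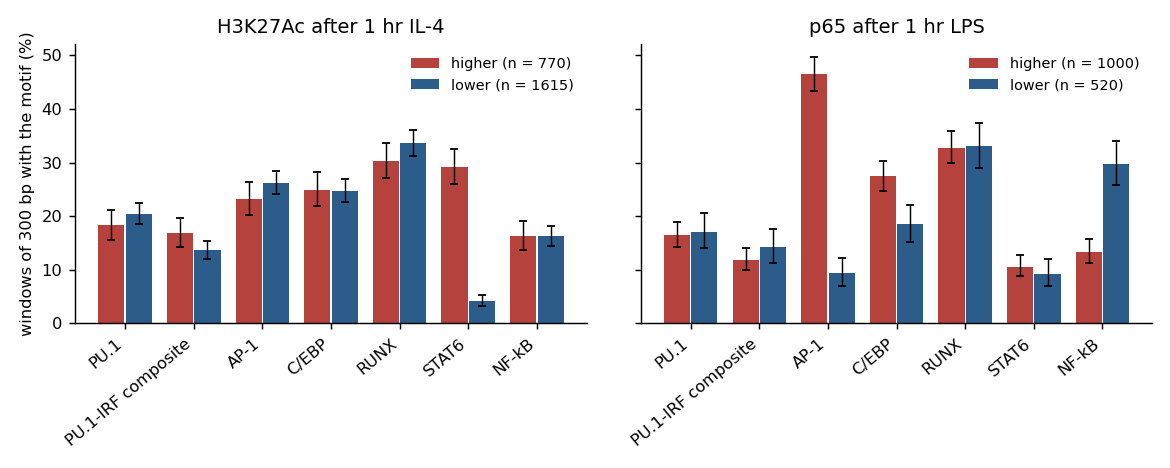
Share of 300 bp windows of co-bound regions holding each motif string (vertical axis, percent), for regions where H3K27Ac rose or fell after 1 hr IL-4 (left) and where centred p65 rose or fell after 1 hr LPS (right). A fall in centred p65 need not be a lower score. Error bars are 95% exact binomial intervals; the STAT6 bars stand at 29.2% and 4.21% on the left and the AP-1 bars at 46.5% and 9.42% on the right.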

How the data were processed

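Peak lists of 56 ChIP-seq samples (28 groups of 2) were used, 1 list per sample, mapped to groups by the labels. The authors crosslinked with DSG and formaldehyde and, by the submitters' processing notes, used BWA 0.7.10, SAMtools 0.1.19, MACS2 2.0.10 and HOMER 4.2 on mm10. The deposited MACS2 lists hold a peak score on a −log10 scale (whether of p or of q is read from the numbers alone), called in each sample separately. A q-value limit of 0.01 is stated, while the lowest deposited scores were near 1.3, and blacklisted regions had been removed by the authors. The deposited H3K27Ac lists hold HOMER signal over 1001 bp regions. Both kinds of value rest on read numbers that the lists do not give, so depth is unknown and peak numbers stand in for it. The study's own read-based comparison was not done here.

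Peaks overlapping by 1 bp or more were merged. The value of a region in a sample was its highest score, and a missing peak took the lowest score of that antibody's lists. Values were log2 transformed and centred on the median of regions with a peak in every sample of the fit. The shift that centring removed (log2, treated minus reference) was 0.38 for PU.1, 0.69 for p300, −0.05 for H3K27Ac, −0.12 for RNAPII-pS5 and −0.01 for RNAPII-pS2 after IL-4, 1.09 and 0.25 for p65 after LPS and with pretreatment, and −0.17 and 0.18 for RNAPII-pS5. Tests used limma 3.58.1 (R 4.3.3, empirical Bayes with trend, two-sided) over all HDAC regions with a peak of the antibody in at least 2 samples, with Benjamini-Hochberg adjustment over all of them and a threshold of 0.05. LPS fits used all 8 samples. An exact permutation test of 2 against 2 cannot go below p = 0.333. HDAC contrasts were described only: the rule used their ctrl samples, so the p-values of their fits were not used.

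Python 3.11.15, pandas 2.3.3, numpy 2.4.6, scipy 1.17.1, pysam 0.24.0, SAMtools 1.23.1 and matplotlib 3.10.9 served for the rest. Locations and nearest genes are those of the deposited annotation, with its older gene symbols. Named regions were the 10 best by mean rank, up to 5 rises and 5 falls per comparison by size of change among calls whose groups did not overlap (the 3 largest values where fewer than 3 were called), 2 to 4 examples per gene list, and the regions just inside and outside the rule. Regions with a peak in all 4 samples were added after the values were seen. The members, gene lists and motifs were chosen with earlier results of these data known. Replicate numbers did not pair the samples, with correlations of −0.04 to 0.09. Alternatives changed the centring, the floor, the filter, the threshold, the overlap rule and the samples. Some genes and 1 sequence are not reported here.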

Additional observations from a re-analysis of the deposited data

Results flagged for a closer look

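In the 8-sample limma fits the effect of LPS differed with IL-4 pretreatment at some co-bound regions, by a test of the interaction itself (Benjamini-Hochberg adjusted p of at most 0.05). For p65 the LPS effect was larger after pretreatment at 49 members and smaller at 139 of 5105, beside 2.49% and 2.74% of all HDAC regions (5.22% in either direction). For RNAPII-pS5 the LPS effect was larger at 198 members and smaller at 280 of 4832, beside 6.54% and 6.41% of all regions (13.0%). With peaks in 4 or more of the 8 samples, a limit chosen after seeing the data, the counts were 32 and 110 of 4630 for p65 and 36 and 231 of 3987 for RNAPII-pS5, so most of the 198 larger effects were at members with fewer peaks. "Smaller" here means a more negative difference of log2 changes, so a stronger loss is counted there too. All 4 groups of each antibody enter this test.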

How the results depend on the processing

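Counts of called members depended on centring, on the floor given to missing peaks and on single libraries, and the cause was not tested except where the setting itself removes regions or samples. In pairs of risen and fallen members, an unadjusted p of 0.05 gave 266 and 239 for PU.1, 648 and 956 for p300, 294 and 591 for RNAPII-pS5 and 314 and 318 for RNAPII-pS2 after IL-4, 369 and 413 for p65 and 188 and 1091 for RNAPII-pS5 with pretreatment, and 636 rises for RNAPII-pS5 after LPS. No centring gave 0 and 0 for PU.1, p300, RNAPII-pS5 and RNAPII-pS2 after IL-4, 2335 and 108 for p65 after LPS and 197 and 63 with pretreatment. A peak in every sample gave 50 and 4 for PU.1, 33 and 14 for RNAPII-pS5, 14 and 14 for RNAPII-pS2, 352 rises for p65 after LPS, 20 and 28 with pretreatment, and 244 and 140 for RNAPII-pS5 after LPS with 18 rises with pretreatment. A peak in at least 1 sample gave 24 and 2 for PU.1 and 14 and 28 for RNAPII-pS2. A floor 4 times as high gave 74 and 15 for PU.1, 1305 rises for H3K27Ac, 71 and 47 for RNAPII-pS5 and 29 and 39 for RNAPII-pS2 after IL-4, 1640 falls for p65 after LPS and 334 and 583 with pretreatment, and 761 and 612 for RNAPII-pS5 after LPS and 39 and 898 with pretreatment. Fits over all peaks of the antibody gave 0 rises for PU.1, 33 and 22 for RNAPII-pS5 and 35 and 50 for RNAPII-pS2 after IL-4, and 224 and 236 for p65 with pretreatment.

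The replicate block gave 33 and 1 for PU.1, 1 and 0 for RNAPII-pS5, 0 and 0 for RNAPII-pS2, 76 and 66 for p65 with pretreatment and 39 rises for RNAPII-pS5 with pretreatment, and kept every other count within 1.5 times. The samples share only a number, so a call lost there is no weaker effect.

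With 1 library left out in turn the rises and falls ran from 8 to 116 and 3 to 34 for PU.1, 146 to 999 and 80 to 2423 for p300, 618 to 746 and 1118 to 1430 for H3K27Ac, 4 to 44 and 6 to 13 for RNAPII-pS5 and 7 to 39 and 7 to 40 for RNAPII-pS2 after IL-4, 543 to 721 and 236 to 283 for p65 after LPS, 0 to 72 and 0 to 28 with pretreatment, 240 to 306 and 453 to 692 for RNAPII-pS5 after LPS, and 25 to 29 and 167 to 278 with pretreatment.

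If each sample had to cover at least 50% of a region, 2315 would be co-bound, 2.51% of them at promoters. With 1 ctrl library left out the number ran from 5568 to 7719. HDAC medians of −0.14, −0.09 and −0.15 became −0.46, −0.016 and 0.14 without centring, 0.091, 0.097 and 0.27 under the same rule on the IL-4 samples, and −0.026, −0.018 and −0.032 with a peak in all 12 samples. A floor 4 times as high gave −0.012 for HDAC1. Leaving out 1 library gave −0.21 to −0.067, −0.12 to 0.018 and −0.20 to −0.084. Of 148 named regions none changed sign in any setting run on the same regions, but 45 lost their call without centring, 32 under the replicate block and 26 to 28 when a ctrl/LPS or IL-4 PT/LPS library was left out. Regions named for the size of their change could hardly lose their sign, so the kept signs do not measure robustness. Larger LPS effects after pretreatment fell to 32 for p65 and 36 for RNAPII-pS5 with peaks in 4 or more of the 8 samples, which removes members. Depth cannot be read from the lists, and a missing peak is not a measured 0.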

Other observations

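RNAPII-pS2 of the LPS experiment was not compared between groups, and its peaks covered far more of the co-bound regions than those of the 1 hr IL-4 experiment. In ctrl/ctrl 94.2% of members had a pS2 peak in each sample, in IL-4 PT/ctrl 85.9% and 87.2%, in ctrl/LPS 85.2% and 86.1% and in IL-4 PT/LPS 76.8% and 77.2%. In the 1 hr libraries labelled ctrl the shares were 37.6% and 40.5%, and in those labelled IL-4 36.3% and 43.3%. The lists of the LPS experiment held 25838 to 29235 peaks and those of the 1 hr experiment 16479 to 20677. RNAPII-pS5 went the other way between the experiments, with 94.1% and 89.4% in ctrl and 78.2% and 75.5% in ctrl/ctrl. These values were chosen after they were seen.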
